A study of Mus musculus with 9 samples.

Results

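The protease inhibitor genes described here are the serpins, the Spink and Wfdc families and the stefin A genes, measured in whole ear skin of mice. They were taken from the array table as the genes whose symbol begins with Serpin, Wfdc, Stfa or Spink followed by a digit, from rows annotated with exactly 1 symbol, with the probe set of highest mean over the 9 arrays where a gene had several. This gave 80 of the 19938 genes tested, made up of 15 Serpina, 24 Serpinb, 9 other serpins (clades C to I), 18 Wfdc, 12 Spink and 2 Stfa genes. The ears came from 7 to 9 week old female C57BL/6 mice with no engineered allele named in the labels. In the anisomycin group, 10 µl of a 2 mg/ml solution in 99.5% ethanol was put on each side of the ear once a day, and the series gives 5 days of treatment. Anisomycin blocks protein synthesis at the ribosome and activates stress kinases. In the imiquimod group, 10 mg of a cream with 5% imiquimod, an agonist of Toll-like receptor 7 used to induce psoriasis-like dermatitis, was put on the ear daily for 5 days. The vehicle group is given in the labels without its solvent or its duration, so solvent and active agent cannot be told apart in either treatment, and a treatment group differs from the other in solvent as well as agent. Each group held 3 arrays. The labels do not state that the arrays of a group hold separate mice, and if they do not, the p-values reflect sample-to-sample spread alone.

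Serpins are suicide inhibitors: the target protease cuts an exposed loop, stays bound to the serpin and is locked in a distorted state. The Serpina genes encode mostly secreted plasma-type inhibitors, the Serpinb genes mostly intracellular ones, several of which are made by keratinocytes or leukocytes. Spink genes encode Kazal-type inhibitors of serine proteases, Wfdc genes encode small secreted proteins with a whey acidic protein domain, and stefins inhibit cathepsins inside the cell. In the epidermis the balance of kallikreins and their inhibitors sets how fast the outermost cells are shed.

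Values are RMA expression on the log2 scale, so a difference of 1 is a 2-fold difference, and levels of different probe sets are not compared. A gene was called higher or lower where the moderated test of limma, fitted to all 19938 genes over the 9 arrays, gave a Benjamini-Hochberg adjusted p under 0.05. An exact rank test of 3 arrays against 3 cannot go below p = 0.1, so the calls rest on variances pooled by limma. SE below is the standard error from that fit, with n = 3 arrays per group. A gene is called dim here where its highest group mean was under 5.41, the 30th percentile of that value over all genes. That held for 42 of the 80 inhibitor genes, and whether such genes lie above background is not known from the table. Rises from a low level may be understated. In whole-ear RNA, fewer cells of a type and less RNA per cell cannot be told apart.

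Array medians were 6.08 to 6.10 in vehicle ears and 6.01 to 6.03 in treated ears. The vehicle replicate 2 was the lowest of the 3 vehicle arrays for 38 of the 80 inhibitor genes (47.5%) and for 38.1% of all genes. It also had the lowest mean of the 14 basal and suprabasal keratinocyte markers, 10.82 against 11.17 and 11.04, and the highest of the 12 skeletal muscle markers, 10.23 against 9.67 and 9.53. Without that array, 19 inhibitor genes were higher and 12 lower in each comparison with vehicle. That keratinocyte list, which checks the skin label, averaged 10.74 to 11.26 over the 9 arrays. Several marker lists of other tissues moved with treatment, where 23.3% of all genes were lower with anisomycin and 22.4% with imiquimod. Higher were 22.3% and 20.4% of all genes. All 12 skeletal muscle markers were lower in both treatments. Among 10 cartilage markers, 7 were lower and 1 higher with anisomycin, and 8 were lower with imiquimod. Among 10 mast cell markers, 6 and 8 were lower, and 1 was higher in each treatment. Among 10 T and NK cell markers, 4 and 2 were lower, the latter not above the share of all genes. Of 12 endothelial markers, 5 were higher and 2 lower with anisomycin, and 1 higher and 4 lower with imiquimod. The part of these shifts in the inhibitor values was not tested.

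The first comparison asks how the inhibitor genes differed between anisomycin-treated and vehicle ears. Both stefins, Serpinb3a, Serpinb6c and Serpinb2 rose most, and Serpina3b and Serpina12 fell most. In all, 19 of the 80 genes (23.8%) were called higher, where 22.3% of all genes were, and 10 (12.5%) were called lower, where 23.3% of all genes were. With a difference of at least 2-fold, 12 (15%) were higher, where 5.1% of all genes were, and 8 (10%) were lower, where 3.45% of all genes were. The median difference was 0.02 over the inhibitors and -0.01 over all genes. Over both directions together, the share called was below that of all genes, and the share called at 2-fold or more was above it. The sets differ in level, with 42 of the 80 inhibitors dim beside 30% of all genes by definition. Of those 42, 3 were called higher and 0 lower. Of the called inhibitors 65.5% were higher, and 54.5% with arrays centred on the 1000 genes of most stable rank.

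Imiquimod-treated ears were set against the same vehicle ears, so the comparisons share their controls. The stefins, Serpinb3a, Serpina9 and Serpinb6c rose most, and Serpina3b again fell most. Here 19 genes (23.8%) were higher, where 20.4% of all genes were, and 11 (13.8%) were lower, where 22.4% of all genes were. At 2-fold or more, 12 (15%) were higher, where 4.26% of all genes were, and 5 (6.25%) were lower, where 2.6% of all genes were. Of the 42 dim inhibitors, 4 were higher and 0 lower. The median difference was 0.001 over the inhibitors and -0.03 over all genes. Of the called inhibitors 63.3% were higher, and 48.6% with arrays centred on stable genes, where 19 in place of 11 were lower. No inhibitor gene was called higher with one treatment and lower with the other. The shared vehicle arrays alone favour the same direction for any gene, and the share of all genes with opposite calls is not given here.

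Set directly against each other, the treatments differed in fewer inhibitors. Relative to imiquimod, 7 genes (8.75%) were higher with anisomycin, where 10.8% of all genes were, and 9 (11.2%) were lower, where 9.59% of all genes were. At 2-fold or more, 1 (1.25%) was higher, where 0.923% of all genes were, and 5 (6.25%) were lower, where 0.702% of all genes were. The gene that was at least 2-fold higher with anisomycin was Serpinb2. The genes that were at least 2-fold lower with anisomycin were Stfa3, Serpinb3a, Serpina9, Spink7 and Serpinb12. The median difference was 0.01 over the inhibitors and 0.01 over all genes. Without imiquimod replicate 1, 4 genes were higher with anisomycin in place of 7.

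**Figure D1:**
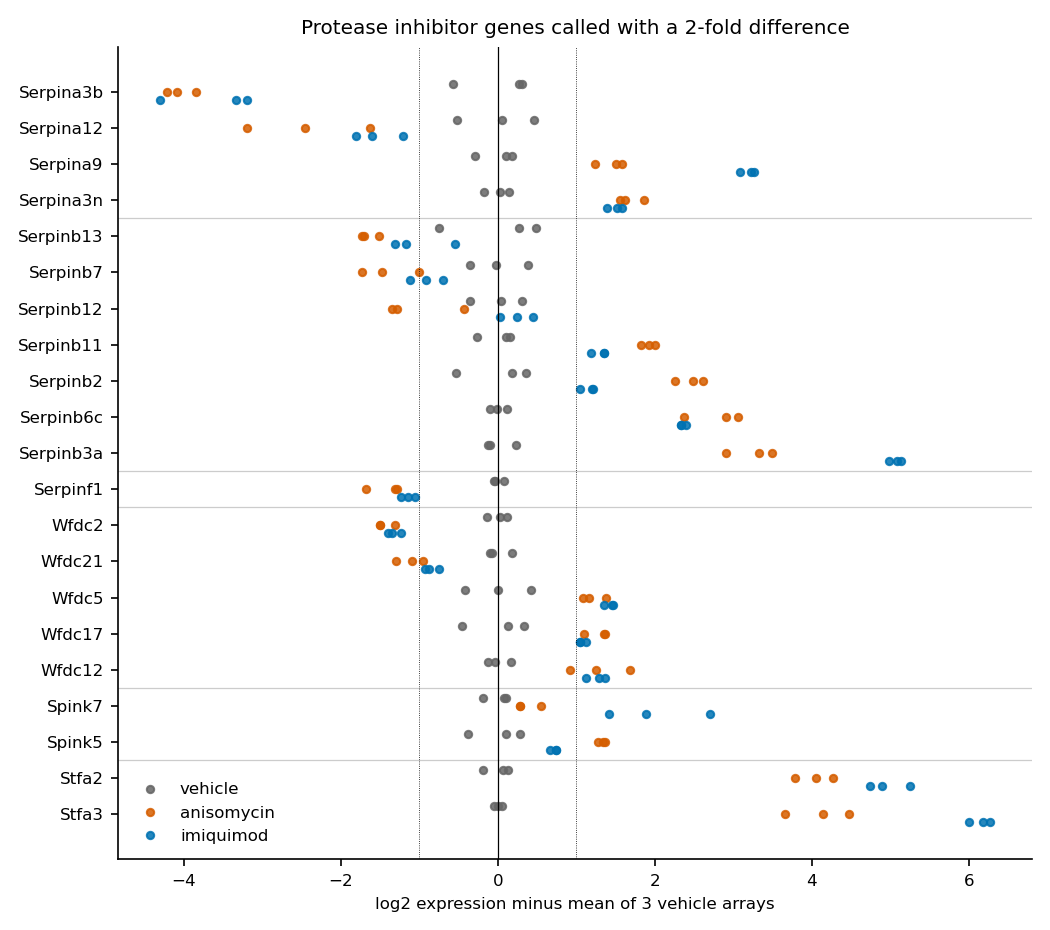
Each point is 1 array, and the x axis is the log2 expression of a gene minus the mean of its 3 vehicle arrays, for the 21 inhibitor genes called with at least a 2-fold difference in some comparison; dotted lines mark a 2-fold difference. The stefins and Serpinb3a lie farthest right, with imiquimod beyond anisomycin, and Serpina3b lies farthest left in both treatments.

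Stefin A proteins are small inhibitors of cysteine cathepsins, and mouse neutrophils are known for making them. Stfa3 read 4.17, 4.22 and 4.12 on the vehicle arrays, 7.83, 8.31 and 8.64 with anisomycin and 10.45, 10.35 and 10.17 with imiquimod. The 3 groups did not overlap, and every imiquimod array lay above every anisomycin array. The rise was 4.09 (SE 0.17) with anisomycin, which is 17.0-fold, and 6.15 (SE 0.17) with imiquimod, which is 71.1-fold, with limma adjusted p of 2.22e-07 and 2.18e-08. Stfa2 read 4.44, 4.38 and 4.13 with vehicle, 8.10, 8.58 and 8.36 with anisomycin and 9.21, 9.57 and 9.05 with imiquimod. Its groups were ordered in the same way without overlap, with rises of 4.03 and 4.96 (SE 0.16 each, limma adjusted p = 1.33e-07 and 4.64e-08). Between the treatments Stfa3 was lower with anisomycin, with a difference of -2.06 (95% interval -2.45 to -1.68, limma adjusted p = 0.000125), and the same difference for Stfa2 was -0.93 (95% interval -1.28 to -0.58, limma adjusted p = 0.00367). Copies of stefin A differ so little in sequence that a probe set for one may also bind transcripts of others, which leaves the values of single copies uncertain.

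The windows of 250 bases upstream of the start sites of Stfa2 and Stfa3 are shown because these neighbouring copies rose together. They are RefSeq sequence of build GRCm38.p6, 5′ to 3′ on the minus strand of chromosome 16, at chr16:36408364-36408613 and chr16:36455393-36455642, and capitals mark bases that differ from the other copy or have no partner in the alignment.
Stfa2: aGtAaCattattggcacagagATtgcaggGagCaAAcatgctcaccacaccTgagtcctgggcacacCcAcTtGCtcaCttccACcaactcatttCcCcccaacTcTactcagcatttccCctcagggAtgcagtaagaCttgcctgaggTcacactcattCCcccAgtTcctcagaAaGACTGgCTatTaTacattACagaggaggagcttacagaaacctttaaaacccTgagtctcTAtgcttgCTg
Stfa3: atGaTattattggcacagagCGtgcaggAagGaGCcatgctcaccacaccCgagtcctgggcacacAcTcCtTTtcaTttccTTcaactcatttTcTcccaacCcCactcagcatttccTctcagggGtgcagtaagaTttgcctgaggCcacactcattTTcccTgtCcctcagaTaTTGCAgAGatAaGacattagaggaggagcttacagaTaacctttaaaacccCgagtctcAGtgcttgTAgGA
Of 247 aligned bases 203 were identical (82.2%). Neither window held any of the 6 motifs searched on both strands, which were TGACTCA (in 4.46% of 32851 RefSeq windows of this length), TGACGTCA (1.55%), TTCNNNGAA (7.02%), TTNNGCAA (9.56%), the NF-kB motif (7.25%) and TATAAA (12.4%). That says only that these letters are not in these windows.

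Of the 21 neutrophil markers measured, 14 were higher and 1 lower in each treatment. Of all genes, 22.3% were higher and 23.3% lower with anisomycin, and 20.4% and 22.4% with imiquimod. The mean of these markers was 5.05 to 5.15 on the vehicle arrays, 7.33 to 7.63 with anisomycin and 7.41 to 7.55 with imiquimod. The granule protein genes Mpo (myeloperoxidase), Elane (neutrophil elastase) and Prtn3 (proteinase 3) were not called in any comparison, while S100a8 rose by 5.50 and 6.62 and Cxcr2 by 4.97 and 4.71. S100a8 and S100a9, which were also higher with imiquimod than with anisomycin, are made by activated keratinocytes as well as neutrophils. Cxcr2 did not pass the test between the treatments (0.27). Relative to imiquimod, 6 of the 21 markers were higher and 5 lower with anisomycin, where 10.8% and 9.59% of all genes were. At 2-fold or more, 1 was higher and 2 were lower, where 0.923% and 0.702% of all genes were. The part of neutrophil number in the stefin values was not tested.

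**Figure D2:**
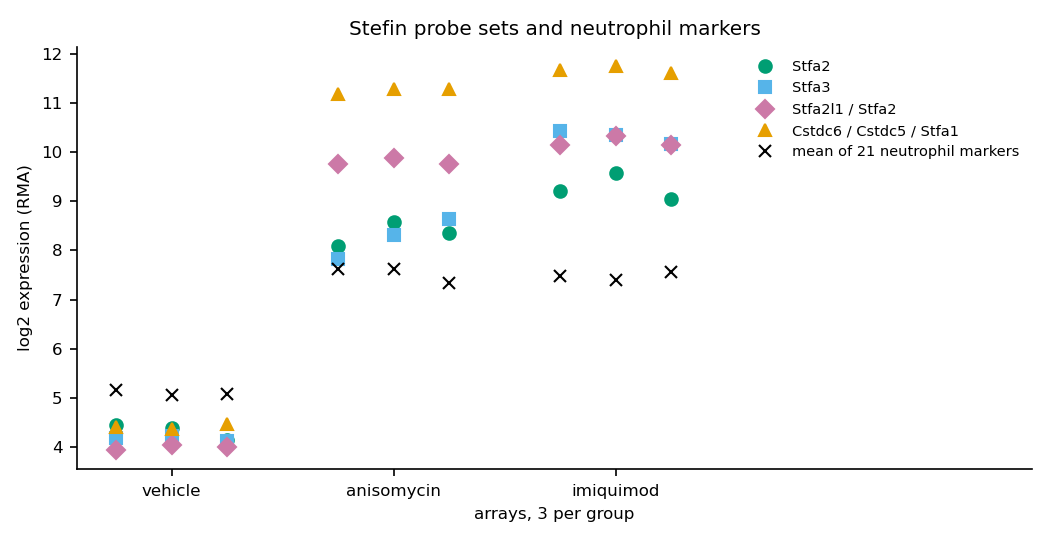
Log2 expression (y axis) on each of the 9 arrays, grouped on the x axis, of the Stfa2 and Stfa3 probe sets, of 2 probe sets annotated with several symbols that include a stefin, and of the mean of 21 neutrophil markers. All 4 stefin probe sets were higher on every treated array than on any vehicle array and higher with imiquimod than with anisomycin. The marker means of the treatments overlap, and single markers differed between the treatments in both directions.

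Of the 15 Serpina genes, 3 were higher (20%, beside 22.3% of all genes) and 2 lower (13.3%, beside 23.3%) with anisomycin. With imiquimod 2 were higher and 2 lower (13.3% each, beside 20.4% and 22.4%), so no share of calls of any size was above that of all genes. At 2-fold or more the shares were above it, with 2 genes higher and 2 lower in each treatment (13.3% each). Of all genes, 5.1% were higher and 3.45% lower at 2-fold with anisomycin, and 4.26% and 2.6% with imiquimod. Serpina3b, a member of the mouse antichymotrypsin cluster, read 9.34, 8.51 and 9.38 with vehicle, 4.87, 4.99 and 5.23 with anisomycin and 4.77, 5.73 and 5.88 with imiquimod. Every treated array lay more than 2 units below every vehicle array, and the treatments overlapped. The fall was 16.6-fold with anisomycin (difference -4.05, SE 0.31, limma adjusted p = 6.69e-06) and 12.2-fold with imiquimod (-3.61, SE 0.31, limma adjusted p = 1.85e-05). Serpina3n of the same cluster, a secreted acute-phase inhibitor of cathepsin G and other leukocyte proteases, moved the opposite way. It read 9.26, 9.46 and 9.58 with vehicle, 11.05, 11.30 and 10.99 with anisomycin and 11.02, 10.95 and 10.82 with imiquimod. The rise was 1.68 and 1.50 (SE 0.10 each, limma adjusted p = 2e-06 and 5.67e-06). The difference of Serpina3n between the treatments was 0.18 (95% interval -0.05 to 0.41), and that of Serpina3b was -0.44 (95% interval -1.13 to 0.26), so neither passed the test. The liver is a main source of acute-phase serpins. Of 11 hepatocyte markers 1 was higher and 1 lower in each treatment, below the shares of all genes given above.

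The upstream windows of Serpina3b and Serpina3n are shown because these paralogs of one cluster moved in opposite directions in both treatments. They are RefSeq sequence of build GRCm38.p6, 250 bases each, 5′ to 3′ on the plus strand of chromosome 12, at chr12:104127746-104127995 and chr12:104406458-104406707, with capitals as for the stefins.
Serpina3b: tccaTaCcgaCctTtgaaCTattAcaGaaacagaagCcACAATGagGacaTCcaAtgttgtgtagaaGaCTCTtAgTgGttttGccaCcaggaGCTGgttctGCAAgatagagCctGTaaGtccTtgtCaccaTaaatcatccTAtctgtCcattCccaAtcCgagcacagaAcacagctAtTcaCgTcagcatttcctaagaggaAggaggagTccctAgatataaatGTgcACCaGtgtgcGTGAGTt
Serpina3n: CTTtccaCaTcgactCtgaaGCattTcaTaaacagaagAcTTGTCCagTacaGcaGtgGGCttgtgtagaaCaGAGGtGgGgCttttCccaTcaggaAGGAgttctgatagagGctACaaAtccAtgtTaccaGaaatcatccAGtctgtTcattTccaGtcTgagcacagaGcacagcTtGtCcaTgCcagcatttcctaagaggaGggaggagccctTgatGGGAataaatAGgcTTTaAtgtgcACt
Of 239 aligned bases 180 were identical (75.3%). The Serpina3b window held TTNNGCAA at 152 to 145 bases and TATAAA at 28 to 23 bases upstream of the start, and the Serpina3n window held none of the 6 motifs. These matches are a description of the letters only. Across the family, 58 of the 80 genes had a window in the RefSeq table. TTNNGCAA was in a window of 11 of them (19%) and TATAAA of 13 (22.4%), where a gene with several start sites counts once. TGACTCA and TTCNNNGAA were in a window of 5 each (8.62%), the NF-kB motif of 1 (1.72%) and TGACGTCA of 0. The shares of RefSeq windows given above count every window, so these shares by gene are not compared with them.

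Serpina12, or vaspin, is a secreted inhibitor of the kallikrein Klk7 that is made in fat and in skin. It read 8.87, 7.89 and 8.46 with vehicle, 5.21, 5.95 and 6.77 with anisomycin and 6.60, 6.80 and 7.20 with imiquimod, so both treated groups lay below vehicle and overlapped each other. It fell by 2.43 with anisomycin (SE 0.37, limma adjusted p = 0.000503) and by 1.54 with imiquimod (SE 0.37, limma adjusted p = 0.0082). Of 11 adipocyte markers, 9 were lower in each treatment, where 23.3% and 22.4% of all genes were. The list mean was 8.13 to 8.62 with vehicle, 6.97 to 7.25 with anisomycin and 7.38 to 7.54 with imiquimod. The part of these markers in the Serpina12 values was not tested. The gene of the Serpina12 target, Klk7, rose by 1.85 and 1.50.

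Serpina9, or centerin, is known from germinal centre B cells. It read 5.06, 4.66 and 5.13 with vehicle, 6.19, 6.45 and 6.53 with anisomycin and 8.04, 8.21 and 8.17 with imiquimod, 3 ranges without overlap. The rise was 1.44 with anisomycin (SE 0.13, limma adjusted p = 1.82e-05) and 3.19, or 9.13-fold, with imiquimod (limma adjusted p = 3.12e-07), and the treatments differed by -1.75 (SE 0.13, limma adjusted p = 7.59e-05). The remaining call in the family was Serpina1d, a dim alpha-1-antitrypsin copy, which was 0.20 higher with anisomycin and lost this call in 12 of the alternative settings. The other 10 Serpina genes, all dim, were called in no comparison and had differences between -0.09 and 0.13. They include Serpina5 (protein C inhibitor), Serpina10 (the protein Z-dependent inhibitor) and Serpina16.

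Of the 24 Serpinb genes, 8 were higher in each treatment (33.3%, beside 22.3% and 20.4% of all genes). With anisomycin 3 were lower (12.5%, beside 23.3%) and with imiquimod 2 (8.33%, beside 22.4%). Relative to imiquimod, 5 were higher (20.8%, beside 10.8%) and 3 lower (12.5%, beside 9.59%) with anisomycin. Serpinb3a, the mouse relative of the human squamous cell carcinoma antigens and an inhibitor of cysteine and serine proteases, had the largest rise. It read 3.00, 2.98 and 3.33 with vehicle, 6.43, 6.00 and 6.59 with anisomycin and 8.18, 8.23 and 8.09 with imiquimod. The groups did not overlap, and the rise was 3.24 with anisomycin (9.44-fold, SE 0.15, limma adjusted p = 3.56e-07) and 5.07 with imiquimod (33.5-fold, limma adjusted p = 2.98e-08). The treatments differed by -1.83 (SE 0.15, limma adjusted p = 0.000109). Its copies Serpinb3c and Serpinb3d were dim. With imiquimod they were higher by 0.43 and 0.52, and with anisomycin they differed from vehicle by 0.01 and 0.15 and were not called. The difference between treatments was called for Serpinb3c (-0.42, limma adjusted p = 0.00593) and missed the threshold for Serpinb3d (-0.36, limma adjusted p = 0.0502).

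Serpinb2, plasminogen activator inhibitor type 2, is made by activated keratinocytes and macrophages. It read 9.78, 9.07 and 9.97 with vehicle, 12.22, 12.09 and 11.87 with anisomycin and 10.65, 10.82 and 10.80 with imiquimod. Here anisomycin lay above imiquimod, and both lay above vehicle, without overlap. The rise was 2.45 with anisomycin (5.47-fold, SE 0.20, limma adjusted p = 1.02e-05) and 1.15 with imiquimod (2.22-fold, limma adjusted p = 0.00127), and the treatments differed by 1.30 (SE 0.20, limma adjusted p = 0.00267). The genes of its targets, the urokinase and tissue-type plasminogen activators, are Plau and Plat. They rose by 0.46 and 0.36 with anisomycin and differed by 0.09 and 0.13, without a call, with imiquimod. All 11 activated keratinocyte markers were higher in both treatments, where 22.3% of all genes were with anisomycin and 20.4% with imiquimod. The list mean was 6.17 to 6.48 with vehicle, 11.34 to 11.38 with anisomycin and 11.00 to 11.08 with imiquimod. Of 12 macrophage and monocyte markers, 10 were higher with anisomycin and 8 with imiquimod, beside the same shares of all genes. Their means were 7.04 to 7.18 with vehicle, 8.32 to 8.50 with anisomycin and 8.12 to 8.19 with imiquimod. Both lists were thus ordered as Serpinb2 was, and their part in its values was not tested.

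Serpinb6c read 5.11, 4.90 and 4.98 with vehicle, 7.36, 7.91 and 8.05 with anisomycin and 7.33, 7.39 and 7.33 with imiquimod. The treated groups overlapped each other and lay above vehicle. It rose by 2.78 and 2.36 (SE 0.15 each, limma adjusted p = 1.03e-06 and 3.92e-06), and the difference between treatments of 0.42 was not called. Serpinb11 read 6.06, 5.69 and 6.11 with vehicle, 7.88, 7.77 and 7.95 with anisomycin and 7.14, 7.30 and 7.30 with imiquimod. Its rises were 1.92 and 1.30, and anisomycin exceeded imiquimod by 0.62 (SE 0.11, limma adjusted p = 0.00439).

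Falls were found for Serpinb12, Serpinb13 and Serpinb7. Serpinb12 read 8.54, 7.88 and 8.27 with vehicle, 6.87, 6.94 and 7.79 with anisomycin and 8.26, 8.68 and 8.47 with imiquimod. The anisomycin arrays lay below both other groups, and anisomycin replicate 3 lay close to the lowest vehicle array. It fell by 1.02 with anisomycin (SE 0.25, limma adjusted p = 0.00766), differed by 0.24 with imiquimod (95% interval -0.32 to 0.81, not called) and differed by -1.27 between the treatments (limma adjusted p = 0.00774). Serpinb13, an epithelial inhibitor of cathepsins L and K, read 6.81, 5.58 and 6.59 with vehicle, 4.62, 4.59 and 4.82 with anisomycin and 5.02, 5.15 and 5.78 with imiquimod. Its difference with anisomycin was -1.65 (SE 0.30, limma adjusted p = 0.00146) with no overlap, but the imiquimod and vehicle arrays overlapped. The imiquimod difference of -1.01 (SE 0.30, limma adjusted p = 0.0224) lost its call in 5 alternative settings, namely with only the 2 groups compared, without imiquimod replicate 1 or 2, and without vehicle replicate 1 or 3, with an adjusted p of up to 0.0846. The genes of the cathepsins that Serpinb13 can inhibit moved in different directions: Ctsl rose by 1.75 and 0.55, and Ctsk fell by 1.29 and 0.96.

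Serpinb7, whose human counterpart is mutated in the palmoplantar keratosis of Nagashima type, read 7.89, 7.15 and 7.48 with vehicle, 5.77, 6.03 and 6.51 with anisomycin and 6.39, 6.59 and 6.80 with imiquimod. It fell by 1.40 and 0.91 (SE 0.22 each, limma adjusted p = 0.000578 and 0.00802), with all treated arrays below all vehicle arrays. Of 14 basal and suprabasal keratinocyte markers, 6 were higher and 5 lower with anisomycin. With imiquimod 7 were higher and 2 lower, so that list did not move in 1 direction. Of all genes, 22.3% were higher and 23.3% lower with anisomycin, and 20.4% and 22.4% with imiquimod. The part of keratinocyte number in these falls was not tested. Serpinb5 (maspin), Serpinb8 and Serpinb10 were called in no comparison, with 95% intervals of -0.04 to 0.51, -0.13 to 0.65 and -0.10 to 0.64 for anisomycin against vehicle and -0.09 to 0.47, -0.41 to 0.37 and -0.34 to 0.40 for imiquimod against vehicle.

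The Serpinb genes lie in 2 clusters, and their order below is that of the RefSeq gene table. Beside the counts of both clusters, 22.3% of all genes were higher and 23.3% lower with anisomycin, and 20.4% and 22.4% with imiquimod. Counts in clusters this small are a description and are not read as a trait of a cluster. On chromosome 1, with 11 genes measured, 3 were higher and 3 lower with anisomycin and 5 higher and 2 lower with imiquimod. Rises and falls were interspersed along the cluster. Among the genes measured, Serpinb13 stood next to Serpinb3a, and Serpinb12, called lower with anisomycin only, stood on the far side of Serpinb13. Serpinb7 stood between Serpinb11 and Serpinb2. On chromosome 13, with 13 genes of which 6 were dim, 5 were higher with anisomycin and 3 with imiquimod, and 0 were lower in either by limma. At an unadjusted p under 0.05, Serpinb1c and Serpinb6d would be lower with imiquimod and 0 genes with anisomycin. In the alternative settings Serpinb6d was called lower with imiquimod in 9 of 20 and with anisomycin in 3, and Serpinb1c in 4 and 2 of 19.

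**Figure D3:**
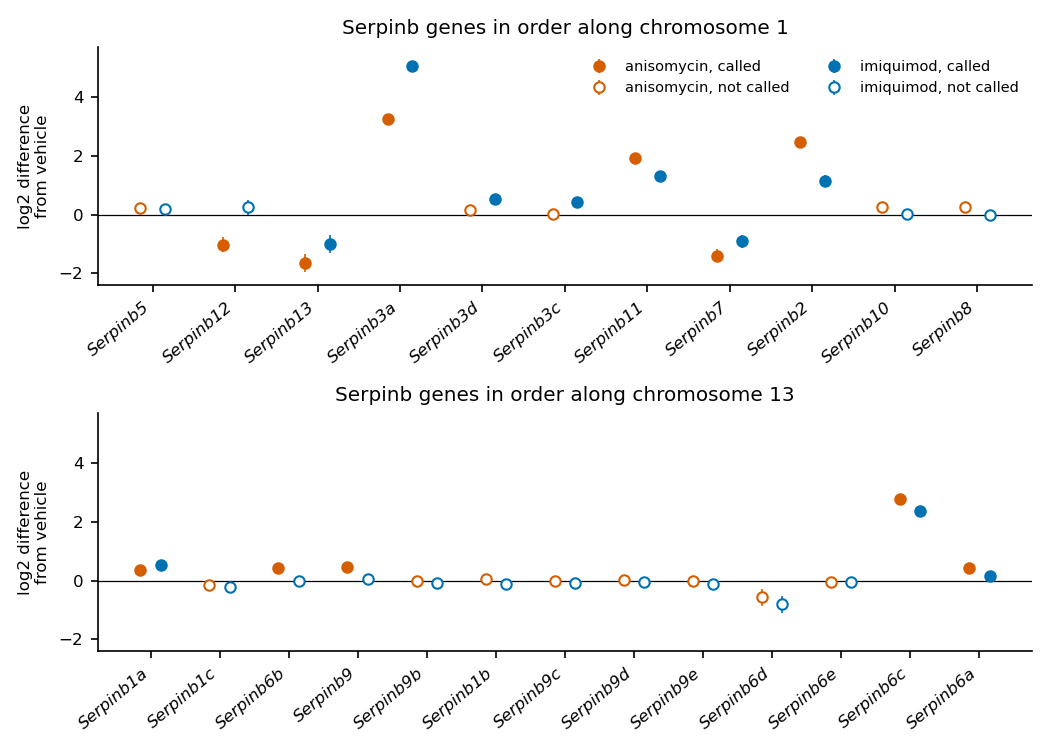
Log2 difference from vehicle (y axis) of the 24 Serpinb genes in their order along chromosomes 1 and 13 (x axis, not to scale); bars are the SE from limma, mostly smaller than the points, filled points were called and open points were not. Serpinb3a is the highest point on chromosome 1, next to the falls of Serpinb13, and Serpinb12 fell with anisomycin only. No chromosome 13 gene was called lower, where 23.3% of all genes were with anisomycin and 22.4% with imiquimod.

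On chromosome 13, Serpinb1a, an inhibitor of neutrophil elastase, proteinase 3 and cathepsin G, rose by 0.38 with anisomycin and 0.52 with imiquimod (SE 0.08 each, limma adjusted p = 0.00301 and 0.000508). Serpinb6a, an inhibitor of cathepsin G, rose by 0.43 (limma adjusted p = 4.76e-05) and by 0.17 (limma adjusted p = 0.0131), the latter not called under 3 other normalizations, down to 0.03. Serpinb9, an inhibitor of granzyme B, read 4.90, 5.06 and 4.97 with vehicle, 5.60, 5.40 and 5.27 with anisomycin and 4.95, 5.08 and 5.07 with imiquimod. It rose by 0.45 with anisomycin (SE 0.09, limma adjusted p = 0.00197) and differed by 0.05 with imiquimod, and the difference between treatments of 0.39 (limma adjusted p = 0.0123) reached an adjusted p of 0.0523 without imiquimod replicate 1. Serpinb6b rose by 0.44 with anisomycin and differed by -0.01 with imiquimod, and its difference between treatments of 0.44 lost its call in 4 settings. Gzmb rose by 0.55 and 0.51, Ctsg fell by 0.29 and 0.32, and Elane and Prtn3 were not called. Serpinb6d differed by -0.56 with anisomycin and -0.80 with imiquimod (limma adjusted p = 0.15 and 0.0504), and Serpinb1c by -0.14 and -0.20 (limma adjusted p = 0.175 and 0.0564), without a call. The other 6 Serpinb genes called in no comparison are copies of the Serpinb1, Serpinb6 and Serpinb9 subgroups.

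**Figure D4:**
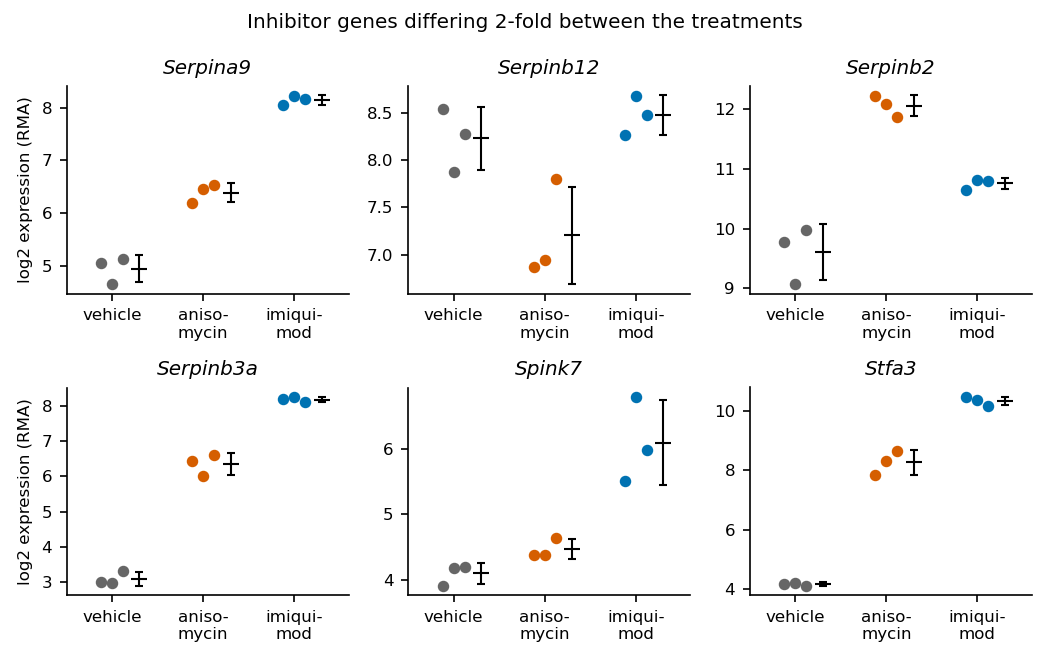
Log2 expression (y axis, own range for each gene) on each array for the 6 inhibitor genes that differed at least 2-fold between the treatments; bars are the mean and SD of 3 arrays. Serpinb2 is the one highest with anisomycin, Serpinb12 is the one that overlaps vehicle with imiquimod and lies lower with anisomycin, and the other 4 are highest with imiquimod.

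Of the 9 serpins of clades C to I, 0 were called higher than vehicle by limma in either treatment, where 22.3% and 20.4% of all genes were. At an unadjusted p under 0.05 the count was also 0. With anisomycin 2 were lower (22.2%, beside 23.3% of all genes) and with imiquimod 3 (33.3%, beside 22.4%). Serpinf1 encodes pigment epithelium-derived factor, a serpin without protease inhibition. It read 10.75, 10.61 and 10.64 with vehicle, 8.99, 9.36 and 9.38 with anisomycin and 9.43, 9.61 and 9.52 with imiquimod, so every treated array lay below every vehicle array. It fell by 1.43 and 1.15 (SE 0.10 each, limma adjusted p = 4.85e-06 and 2.41e-05). Serping1, the C1 inhibitor of the complement and contact systems, read 10.95, 10.87 and 10.96 with vehicle, 10.02, 10.13 and 10.08 with anisomycin and 10.39, 10.37 and 10.31 with imiquimod. The 3 groups did not overlap, with falls of 0.85 and 0.57 and a difference between treatments of -0.28 (SE 0.05, limma adjusted p = 0.0061). The gene of its target C1r, C1ra, fell by 0.20 with anisomycin and rose by 0.33 with imiquimod.

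Serpinh1, the collagen chaperone HSP47, which is also no inhibitor, read 7.97, 8.12 and 7.74 with vehicle, 8.25, 8.19 and 7.98 with anisomycin and 7.61, 7.65 and 7.51 with imiquimod. The anisomycin arrays overlapped vehicle (0.20, not called), and the imiquimod arrays lay below. The fall of 0.35 with imiquimod (SE 0.10, limma adjusted p = 0.0196) was lost without imiquimod replicate 3 or vehicle replicate 1 or 2 (adjusted p up to 0.0715), while the difference of 0.55 between the treatments (limma adjusted p = 0.00598) was kept in all 20 alternatives run. Of 14 fibroblast markers, 1 was higher and 11 lower with anisomycin and 11 were lower with imiquimod. Of all genes, 22.3% were higher and 23.3% lower with anisomycin, and 22.4% were lower with imiquimod. The list means were 10.17 to 10.25, 9.45 to 9.55 and 9.42 to 9.52 for vehicle, anisomycin and imiquimod. Col1a1, which encodes a client of that chaperone, differed by -1.49 and -1.52, both called. The part of fibroblast number in the values of Serpinf1, Serping1 and Serpinh1 was not tested. The other 6 genes of these clades, namely Serpinc1 (antithrombin), Serpind1 (heparin cofactor), Serpine3, Serpinf2 (antiplasmin), Serpini1 (neuroserpin) and Serpini2, were called in no comparison, with differences between -0.18 and 0.11, and 5 of them were dim.

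Of the 12 Spink genes, 3 (25%) were higher in each treatment by limma, near the 22.3% and 20.4% of all genes. Called lower were 0, where 23.3% and 22.4% of all genes were, and 0 were lower at an unadjusted p under 0.05. All Spink genes but Spink5 and Spink7 were dim. Spink5 encodes LEKTI, the inhibitor of the epidermal kallikreins Klk5, Klk7 and Klk14 whose loss causes Netherton syndrome. It read 9.99, 9.33 and 9.81 with vehicle, 11.07, 10.99 and 11.05 with anisomycin and 10.37, 10.45 and 10.45 with imiquimod. Its groups did not overlap, with anisomycin highest. It rose by 1.33 (SE 0.14, limma adjusted p = 4.37e-05) and 0.71 (limma adjusted p = 0.00232), and the difference between treatments of 0.61 (limma adjusted p = 0.0142) reached an adjusted p of 0.054 without imiquimod replicate 1. The genes of kallikreins that LEKTI inhibits were higher too, Klk5 by 0.89 and 1.12 and Klk14 by 4.15 and 2.71.

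Spink7, an inhibitor known from the oesophageal epithelium, read 3.91, 4.18 and 4.20 with vehicle, 4.38, 4.38 and 4.65 with anisomycin and 5.51, 6.80 and 5.99 with imiquimod. All imiquimod arrays lay above the rest, with the widest spread of the groups (SD 0.65). It rose by 2.01 with imiquimod (4.02-fold, SE 0.27, limma adjusted p = 0.000244) and differed by 0.37 with anisomycin (95% interval -0.23 to 0.97, not called), and the treatments differed by -1.63 (limma adjusted p = 0.0033). Spink14 was dim and read 3.98, 3.79 and 3.86 with vehicle, 4.17 on all 3 anisomycin arrays and 4.53, 4.63 and 4.52 with imiquimod. It was higher by 0.28 and 0.68 (SE 0.06 each, limma adjusted p = 0.00314 and 2.08e-05), and the treatments differed by -0.39. Spink12, also dim, read 5.84, 4.73 and 4.61 with anisomycin against 4.21, 4.20 and 4.35 with vehicle. Its difference of 0.80 (SE 0.27, limma adjusted p = 0.0334) came to 0.41 without anisomycin replicate 1, where it was still called (limma adjusted p = 0.0028), and lost its call in 8 other settings. With imiquimod it read 5.01, 4.86 and 5.03, a difference of 0.71 that was not called (limma adjusted p = 0.0582). The other 8 Spink genes, all dim and among them Spink2, Spink6, Spink8 and Spink10, had differences between -0.22 and 0.28 and no call.

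Of the 18 Wfdc genes, 3 were higher and 3 lower with anisomycin (16.7% each, beside 22.3% and 23.3% of all genes). With imiquimod 4 were higher and 4 lower (22.2% each, beside 20.4% and 22.4%). These shares of calls of any size were near or below those of all genes. At 2-fold or more they were above, with 3 genes (16.7%) higher in each treatment, beside 5.1% and 4.26%. Lower at 2-fold were 2 (11.1%, beside 3.45%) with anisomycin and 1 (5.56%, beside 2.6%) with imiquimod. Between the treatments 0 were called by limma, and at an unadjusted p under 0.05 only Wfdc18 and Wfdc21 differed, both lower with anisomycin. Wfdc5, an epidermal member, read 9.25, 8.41 and 8.82 with vehicle, 9.92, 9.99 and 10.21 with anisomycin and 10.30, 10.18 and 10.28 with imiquimod. It rose by 1.21 and 1.43 (SE 0.18 each, limma adjusted p = 0.000379 and 0.000169). Wfdc12 read 4.45, 4.36 and 4.65 with vehicle, 5.41, 5.74 and 6.17 with anisomycin and 5.61, 5.78 and 5.86 with imiquimod, with rises of 1.29 and 1.26 (SE 0.17 each). Wfdc17, which activated macrophages are known to make, read 10.45, 9.65 and 10.24 with vehicle, 11.46, 11.49 and 11.21 with anisomycin and 11.24, 11.17 and 11.16 with imiquimod. It rose by 1.27 and 1.08 (SE 0.17 each, limma adjusted p = 0.000245 and 0.000807), beside the rise of the macrophage markers given above. For all 3 genes the treated arrays lay above every vehicle array, and the treatments overlapped.

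Wfdc2, an epithelial secreted protein also called HE4, read 7.76, 7.85 and 7.60 with vehicle, 6.23, 6.42 and 6.24 with anisomycin and 6.33, 6.38 and 6.50 with imiquimod. It fell by 1.44 and 1.33 (SE 0.08 each, limma adjusted p = 1.38e-06 and 3.26e-06), with no overlap with vehicle. Wfdc21 read 7.64, 7.39 and 7.36 with vehicle, 6.16, 6.37 and 6.51 with anisomycin and 6.59, 6.54 and 6.72 with imiquimod, and fell by 1.12 and 0.85 (SE 0.10 each). Wfdc1 fell by 0.51 and 0.55 (SE 0.12 each, limma adjusted p = 0.00718 and 0.00523). Wfdc3 was 0.23 lower with imiquimod (limma adjusted p = 0.0364), a call lost in 11 settings, and Wfdc18, a dim gene, was 0.29 higher with imiquimod (limma adjusted p = 0.00242). The other 10 Wfdc genes, among them Wfdc8, Wfdc15a, Wfdc15b and Wfdc16, were called in no comparison, with differences between -0.16 and 0.09, and 7 of them were dim.

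Across the family, 35 genes were called in at least 1 comparison and 45 in none, and 36 of those 45 were dim. The 6 dim genes called were Serpina1d, Serpinb3c, Serpinb3d, Spink12, Spink14 and Wfdc18, with none at 2-fold. The share of all genes called in at least 1 comparison is not given here, nor that of all dim genes. These counts are therefore not read as high or low.

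A list of 48 protease genes, of which 47 were measured, was set beside the inhibitors. It includes metalloproteinases such as Mmp8 and Mmp9, so it is wider than the targets of these inhibitors. Most genes on it were higher. With anisomycin 30 were higher and 5 lower, with a median difference of 0.55, and with imiquimod 31 were higher and 6 lower, with a median of 0.40, beside medians of -0.01 and -0.03 over all genes. Between the treatments 11 were higher and 7 lower with anisomycin. The other protease inhibitors were a list of 34, of which 33 were measured. With anisomycin 10 were higher and 13 lower, and with imiquimod 8 were higher and 12 lower. Between the treatments 4 were higher and 4 lower. Beside both lists, 22.3% of all genes were higher and 23.3% lower with anisomycin, and 20.4% and 22.4% with imiquimod. Between the treatments 10.8% of all genes were higher and 9.59% lower with anisomycin. Slpi, which holds a pair of whey acidic protein domains like those of the Wfdc family and inhibits neutrophil elastase, rose by 3.63 and 3.39. The cystatins of the stefin type rose less than Stfa2 and Stfa3, Cstb by 1.14 and 1.23 and Csta1 by 0.91 and 1.45. The broad-range plasma-type inhibitor A2m fell by 1.67 and 1.50, and Itih5, an inter-alpha-trypsin inhibitor heavy chain, by 2.14 and 1.55.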

How the data were processed

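The labels give total RNA of whole ear skin on 9 arrays of the Affymetrix design Mouse Gene 1.0 ST. The deposited file is 1 table of the authors' log2 expression values, made with RMA (background correction, quantile normalization, probe summary), per the submitters' processing notes; neither its version nor a genome build is given in the sources used here. The log2 scale was judged from the range of 2.39 to 13.97. RMA pulls low signals together, so differences at low levels are compressed. Of 35556 rows, 21789 carried 1 symbol, which gave 19938 genes. Rows with several symbols were left out of the main fit, 7 of them naming an inhibitor gene. All 80 members were found in the RefSeq gene table by Entrez identifier. Some members of the named list, such as Serpine2 and Serpinb3b, were not analysed here.

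A linear model with 3 group means was fitted in R 4.3.3 with limma 3.58.1 (6 residual and 3.16 prior degrees of freedom), two-sided, with Benjamini-Hochberg adjustment over all 19938 genes. It was tested on simulated data. The genes named were all members called with a 2-fold difference, a set of chosen symbols, and up to 3 more per subfamily by smallest adjusted p. The members and gene lists were chosen with earlier results of these data known. Alternatives were a trended robust prior, a filter on dim genes, other normalizations, probe set means, every row of the table, a replicate block, array weights, 2 groups only, and leaving out each array.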

Additional observations from a re-analysis of the deposited data

Results flagged for a closer look

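The fit used rows with 1 symbol, and 2 rows with several symbols that include a stefin held signal well above the vehicle arrays. The row annotated Stfa2l1 and Stfa2 read 3.93, 4.03 and 3.98 with vehicle, 9.76, 9.88 and 9.75 with anisomycin and 10.16, 10.33 and 10.14 with imiquimod. Its differences from vehicle were 5.82 with anisomycin and 6.23 with imiquimod. The row annotated Cstdc6, Cstdc5 and Stfa1 read 4.41, 4.35 and 4.46 with vehicle, 11.20, 11.30 and 11.29 with anisomycin and 11.69, 11.76 and 11.63 with imiquimod, with differences of 6.86 and 7.29. Both rows were lower with anisomycin than with imiquimod, with differences of -0.41 and -0.43 (limma adjusted p over all rows = 0.00728 and 0.00356). The gap between the treatments was smaller in these rows than for Stfa3, at -2.06; the difference of these gaps was not tested. The other 5 rows with several symbols, which name Serpina1 or Serpinb9 copies, were not called.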

How the results depend on the processing

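The counts of inhibitor genes called moved by more than 1.5 times in few settings. With arrays centred on the 1000 genes of most stable rank, 19 were lower with imiquimod in place of 11, and among called members the percentage higher went from 65.5% to 54.5% with anisomycin and from 63.3% to 48.6% with imiquimod. Over all genes this percentage went from 49% to 37.1% and from 47.7% to 36.4% under the same centring, and to 56.4% and 54.7% with arrays centred on their medians. With array weights, 13 were higher and 18 lower with anisomycin than with imiquimod, in place of 7 and 9. Leaving out 1 array at a time gave 4 to 8 higher between the treatments, the lowest without imiquimod replicate 1. The cause of these shifts was not tested. The Spink12 difference between the treatments, 0.09, ranged from -0.30 (without anisomycin replicate 1) to 0.32 (without anisomycin replicate 3) with 1 array left out. Whether the replicate numbers pair the arrays is not known. Same-numbered arrays correlated at -0.20 to 0.20 in their deviations from group means, and differently numbered arrays of different groups at -0.24 to 0.25. Such correlations, with 3 arrays per group, cannot settle it. With the replicate block, 20 genes were higher and 10 lower with anisomycin, 19 and 11 with imiquimod, and 7 and 10 between the treatments. Of 75 calls among the named genes, 9 were lost in some setting, and of the 43 at 2-fold or more only that of Serpinb13 with imiquimod was. Of 96 named comparisons without a call, 33 were called in some setting. Of 720 counts by subfamily and setting, 38 moved by more than 1.5 times. With 3 arrays per group and no detection calls, small differences of dim genes are not resolved.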

Other observations

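For 9 of the 80 inhibitor genes (11.2%) the 3 anisomycin arrays held exactly the same value, against 1.51% of all genes. These were Serpinb3d, Serpinb6e, Serpinb9d, Serpini1, Spink14, Wfdc3, Wfdc6b, Wfdc15a and Wfdc18. On the vehicle arrays this held for 1 inhibitor gene and on the imiquimod arrays for 2. A spread of 0 in 1 group lowers the estimated variance of such a gene, which bears on the calls of Spink14, Serpinb3d, Wfdc3 and Wfdc18. These genes were looked at after their values were seen.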
